A study of Mus musculus with 6 samples.

Results

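The prostaglandin E2 genes considered here are the 4 E-type prostanoid (EP) receptor genes Ptger1, Ptger2, Ptger3 and Ptger4, the cyclooxygenase genes Ptgs1 and Ptgs2, the prostaglandin E synthase genes Ptges, Ptges2 and Ptges3, and Hpgd, which encodes the dehydrogenase that inactivates prostaglandins. They were listed by function and found on the array by gene annotation, with the probe set of highest mean signal standing for a gene. Of these 10 genes, 8 had 15 probe sets of their own, out of 18193 genes named on the array. Both probe sets of Ptges3 are annotated jointly to it and to its pseudogene Ptges3-ps, so they are given apart. No probe set is annotated to Ptgs1 in the table used here, and its level is not reported.

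The cells were mpkCCDc14, an immortalised line from the mouse cortical collecting duct. All 6 lines were kept for 5 days with 0.1 nM dDAVP, an analog of vasopressin, so no line without it was compared. Clone 2 is labelled as lacking aquaporin 2 expression and had 1 array. The AQP2-expressing lines were clones 3, 9, 10 and 11 and the original cells, with 1 array each. A clone is a colony grown from the original cells, so the label of clone 2 cannot be told apart from its other traits, and p-values measure only the spread between arrays.

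Prostaglandin E2 is made in 3 steps: a phospholipase releases arachidonic acid, a cyclooxygenase turns it into prostaglandin H2, and a prostaglandin E synthase completes it. In the collecting duct it is known for opposing vasopressin. The EP1 receptor raises cell calcium, EP3 couples to the inhibitory G protein and lowers cyclic AMP, and EP2 and EP4 couple to the stimulatory G protein and raise cyclic AMP, the messenger that vasopressin also uses.

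The labelled cell type was checked on lists of marker genes. Of 10 principal cell markers, 8 had a mean signal above the median probe set, as had all 4 epithelial markers, while none of 5 fibroblast and interstitial or 4 endothelial markers did. Aqp4 and Kcnj1 were the principal cell markers below it. The summed signal of the principal cell markers was 8095 in clone 2 and 14190 to 16114 in the expressing lines. In clone 2, Fxyd4, Hsd11b2, Gata3, Scnn1a and Scnn1g lay below every expressing line, as did 29.3% of all probe sets with a mean signal above the median. Avpr2 and Scnn1b lay inside the range of the expressing lines, and Aqp3 lay above it (192 against 96.4 to 150). The summed signal of the epithelial markers was 66293 in clone 2 and 76736 to 86738 in the expressing lines. The 4 intercalated cell markers, 1 of them above the median, summed to 1033 in clone 2 and 463 to 749 in the expressing lines. Most of this sum came from that 1 gene, Atp6v1b1, at 949 in clone 2 and 413 to 687 in the expressing lines. It was not called (limma adjusted p = 0.177). The sums of the fibroblast and endothelial markers in clone 2, 136 and 119, lay inside the ranges of the expressing lines. That of 4 leukocyte markers was 683 in clone 2 and 149 to 413 in the expressing lines. Most of the leukocyte sum came from Cd68, a lysosomal protein (619 in clone 2 and 122 to 323 in the expressing lines), and Ptprc, the defining leukocyte marker, lay below the filter. Whether the cell makeup of the lines bore on the results below was not tested. In these bulk samples fewer cells of a type and less RNA per cell cannot be told apart. Aqp2 itself had a signal of 159 in clone 2 and between 1066 and 6578 in the expressing lines.

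Promoter sequences are shown for Ptger4, Ptgs2 and Ptges2, because these genes passed the filter on signal and the cells were held under a drug that acts through cyclic AMP. They are RefSeq windows of 300 bases, from 250 before to 50 after the gene start, on assembly GRCm38.p6, read 5′ to 3′ along the gene. Of the 10 genes, 9 had a window, and Ptger1 had none. Capitals mark matches on either strand to the cyclic AMP response element core TGACG, the E-box CACGTG, the CCAAT box CCAAT and the TATA box TATAAA.
Ptger4 (chr15:5244138-5244437, minus strand): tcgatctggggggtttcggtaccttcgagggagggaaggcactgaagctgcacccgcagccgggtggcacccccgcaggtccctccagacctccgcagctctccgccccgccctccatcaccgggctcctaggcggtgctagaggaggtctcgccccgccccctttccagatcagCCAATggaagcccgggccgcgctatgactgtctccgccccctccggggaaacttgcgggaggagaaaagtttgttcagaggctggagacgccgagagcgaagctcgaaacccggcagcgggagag
Ptgs2 (chr1:150099781-150100080, plus strand): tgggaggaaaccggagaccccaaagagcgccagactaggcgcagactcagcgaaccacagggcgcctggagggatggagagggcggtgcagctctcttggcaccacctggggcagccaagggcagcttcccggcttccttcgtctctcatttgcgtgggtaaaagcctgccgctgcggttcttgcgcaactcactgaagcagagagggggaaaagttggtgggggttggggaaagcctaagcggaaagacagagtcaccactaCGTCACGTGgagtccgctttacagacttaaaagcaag
Ptges2 (chr2:32395640-32395939, plus strand): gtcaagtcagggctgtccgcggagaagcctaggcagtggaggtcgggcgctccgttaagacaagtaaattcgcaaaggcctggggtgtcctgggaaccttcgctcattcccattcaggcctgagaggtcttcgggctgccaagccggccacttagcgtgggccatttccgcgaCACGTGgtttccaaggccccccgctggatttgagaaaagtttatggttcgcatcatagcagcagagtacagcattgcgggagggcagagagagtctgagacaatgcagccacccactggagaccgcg
In the Ptgs2 window the cyclic AMP response element core lies on the opposite strand at bases 264 to 268 and overlaps the E-box at bases 267 to 272. The Ptges2 window holds an E-box at bases 174 to 179, and the Ptger4 window holds a CCAAT box at bases 176 to 180. Over all 32851 windows of this length, 20.8% held the core, 7.15% the E-box, 37.4% the CCAAT box and 13.6% the TATA box. The full palindrome TGACGTCA, found in 1.79% of all windows, was in no window of these genes. A match describes letters in the window only.

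Ptger1, the EP1 receptor gene, was the only member called between clone 2 and the expressing lines, as lower in clone 2, and with no filter on signal the call was lost (limma adjusted p = 0.0827). Its MAS5 signal, the array software's linear intensity for a probe set, was 11.2 in clone 2, against 77.9 in clone 3, 124 in clone 9, 138 in clone 10, 195 in clone 11 and 119 in the original cells. Clone 2 lay below every expressing line, and the expressing lines spanned 2.51 times between clone 3 and clone 11. Their mean was 131 ± 42.5 (SD, n = 5), and no fold is given against the signal of clone 2, which lay below the 25th percentile of all values. On the scale log2(signal + 18.85) clone 2 differed by -2.27, with a limma adjusted p = 0.0338, an SE of 0.423 and an unadjusted 95% interval of -3.22 to -1.31.

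The signals of Ptger1 were low. In clone 2 it stood at percentile 20.2 among all probe sets of its array and in the expressing lines at percentiles 48.6 to 61.3, and no detection call was used, so absence of the transcript in clone 2 was not shown. With a mean of 110.8 against a filter at 85.46, Ptger1 passed the filter only through the expressing lines. The second probe set of the gene, below the filter, had a signal of 19.9 in clone 2 and of 66.1, 79.7, 94.99, 66.8 and 47.7 in clones 3, 9, 10 and 11 and the original cells. Clone 2 was again below the others, with a log2 difference of -1.19, and in a fit with no filter this probe set did not pass (limma adjusted p = 0.291). Ptger1 lies on chromosome 8, and the median difference of 573 genes of that chromosome was -0.01.

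The call for Ptger1 was lost without clone 10 (limma adjusted p = 0.0598), without clone 11 (0.055) and without the original cells (0.0806). The size of its difference depended on the offset, with -3.48 at an offset of 0 (limma adjusted p = 0.0179) and -1.75 with the offset doubled (0.0455), and the sign was kept in all 13 alternatives.

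Ptger4, the EP4 receptor gene, had its highest signal in clone 2 with both of its probe sets, and neither passed the test. The first had a signal of 1252 in clone 2, against 761 in clone 3, 879 in clone 9, 912 in clone 10, 636 in clone 11 and 937 in the original cells. The second had 175 in clone 2, against 92.2, 79.8, 87.7, 89.1 and 104 in the same order of lines. Clone 2 lay above the range of the expressing lines on both, at 1.52 and 1.93 times their means of 825 ± 125 and 90.6 ± 8.76 (SD, n = 5). The log2 differences were 0.60 (SE 0.223, limma adjusted p = 0.178) and 0.83 (SE 0.299, limma adjusted p = 0.171). Their unadjusted 95% intervals ran from 0.10 to 1.11 and from 0.15 to 1.504. Ptger4 lies on chromosome 15, as does Aqp2, and the median difference of 402 genes of that chromosome was 0.17.

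The receptors Ptger2 and Ptger3 lay below the filter in these cells. Ptger2, the EP2 receptor gene, had a signal of 15.3 in clone 2, against 1.38 in clone 3, 4.06 in clone 9, 2.74 in clone 10, 1.56 in clone 11 and 15.3 in the original cells. Clone 2 and the original cells thus had like signals, and all 6 values lay at or below percentile 23.4 of their arrays. Ptger3, which encodes the EP3 receptor, had 30.5 in clone 2, against 15.7 in clone 3, 7.19 in clone 9, 15.8 in clone 10, 28.7 in clone 11 and 17.9 in the original cells. Its other probe set read between 1.13 and 4.23 in all lines, at or below percentile 9.41. At signals this low no order of the lines was drawn.

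**Figure D1:**
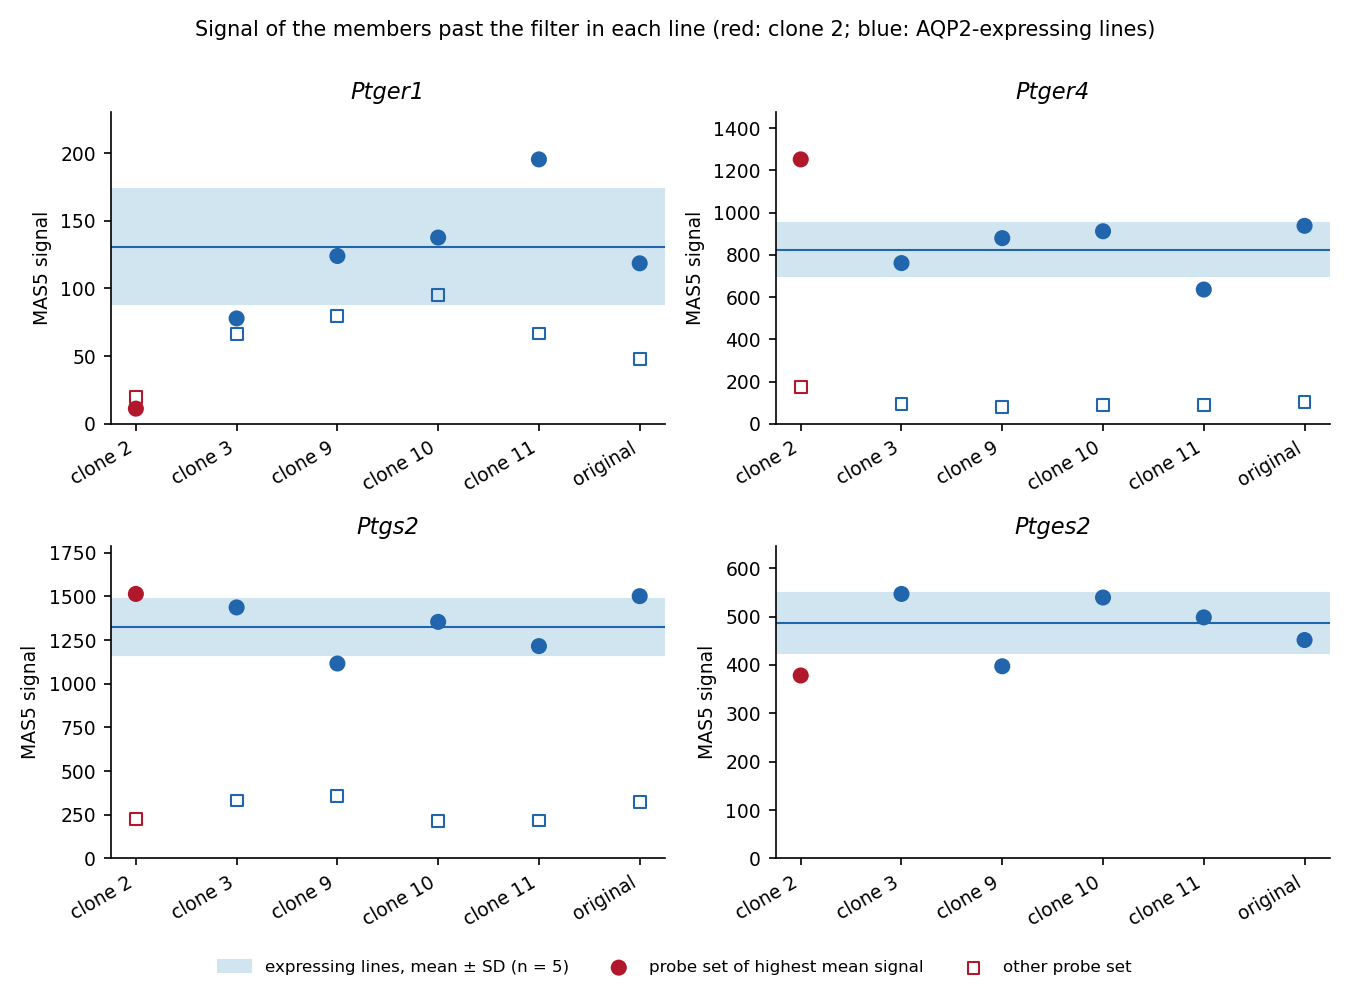
MAS5 signal (linear axis from 0) of Ptger1, Ptger4, Ptgs2 and Ptges2 in each line, clone 2 in red and the AQP2-expressing lines in blue, filled circles for the probe set of highest mean signal and open squares for the other one; line and band give the mean ± SD of the 5 expressing lines. Clone 2 is lowest for Ptger1 (11.2) and highest for Ptger4 (1252), and lies near the edge of the expressing lines for Ptgs2 and Ptges2.

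Ptgs2, the inducible cyclooxygenase, did not pass the test with either probe set. Its signal was 1514 in clone 2, against 1437 in clone 3, 1116 in clone 9, 1354 in clone 10, 1215 in clone 11 and 1501 in the original cells, and clone 2 exceeded the highest expressing line by little. The log2 difference was 0.20 (SE 0.187, limma adjusted p = 0.591), with an unadjusted 95% interval of -0.22 to 0.62, that is 0.856 to 1.54 times on the offset scale. The second probe set of Ptgs2 had the opposite sign. It read 225 in clone 2 and 331, 359, 214, 217 and 324 in clones 3, 9, 10 and 11 and the original cells, inside their range, with a difference of -0.31 (SE 0.312, limma adjusted p = 0.62). Clone 9 was lowest of all lines on the first and highest on the second, so the probe sets gave no common order.

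The synthases were split between measured and low. Ptges2, a membrane-associated synthase, had a signal of 378 in clone 2, against 547 in clone 3, 397 in clone 9, 539.6 in clone 10, 498 in clone 11 and 452 in the original cells. Clone 2 was lowest, close to clone 9, and the difference of -0.34 did not pass (SE 0.216, limma adjusted p = 0.416; unadjusted 95% interval -0.83 to 0.15). The joint probe sets of Ptges3, the cytosolic synthase and Hsp90 cochaperone p23, and its pseudogene were among the brightest of the array, at percentile 98.7 or above in every line. The first read 11078 in clone 2 and 11826 to 12968 in the expressing lines, and the second 9339 in clone 2 and 9915 to 12341 in the expressing lines. Clone 2 was below the expressing lines on both, and the differences of -0.17 (limma adjusted p = 0.393) and -0.27 (limma adjusted p = 0.279) did not pass.

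Ptges, the inducible microsomal synthase that is often coupled to Ptgs2, lay below the filter with all 3 of its probe sets. The brightest had a signal of 66.4 in clone 2, against 44.3 in clone 3, 16.1 in clone 9, 57.2 in clone 10, 55.8 in clone 11 and 52.1 in the original cells. Clone 9 stood lowest there. The second read 52.0 in clone 2 and 2.19 to 34.2 in the expressing lines, and the third 20.9 in clone 2 and 4.16 to 64.2 in the expressing lines. The order of lines differed between the probe sets, and clone 2 was above the others on 2 of them.

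Hpgd, which degrades prostaglandin E2, was also below the filter. Its signal was 16.4 in clone 2, against 42.2 in clone 3, 57.5 in clone 9, 9.89 in clone 10, 3.88 in clone 11 and 19.2 in the original cells. The other probe set read 37.3 in clone 2 and 5.81, 56.8, 1.34, 32.5 and 13.5 in the same order of lines. Clone 9 was highest on both, and clone 2 lay inside the range on both. With no filter, none of the probe sets of Ptger2, Ptger3, Ptges or Hpgd passed in clone 2 by limma, and the smallest unadjusted p among them was 0.0594, for the second probe set of Ptges.

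**Figure D2:**
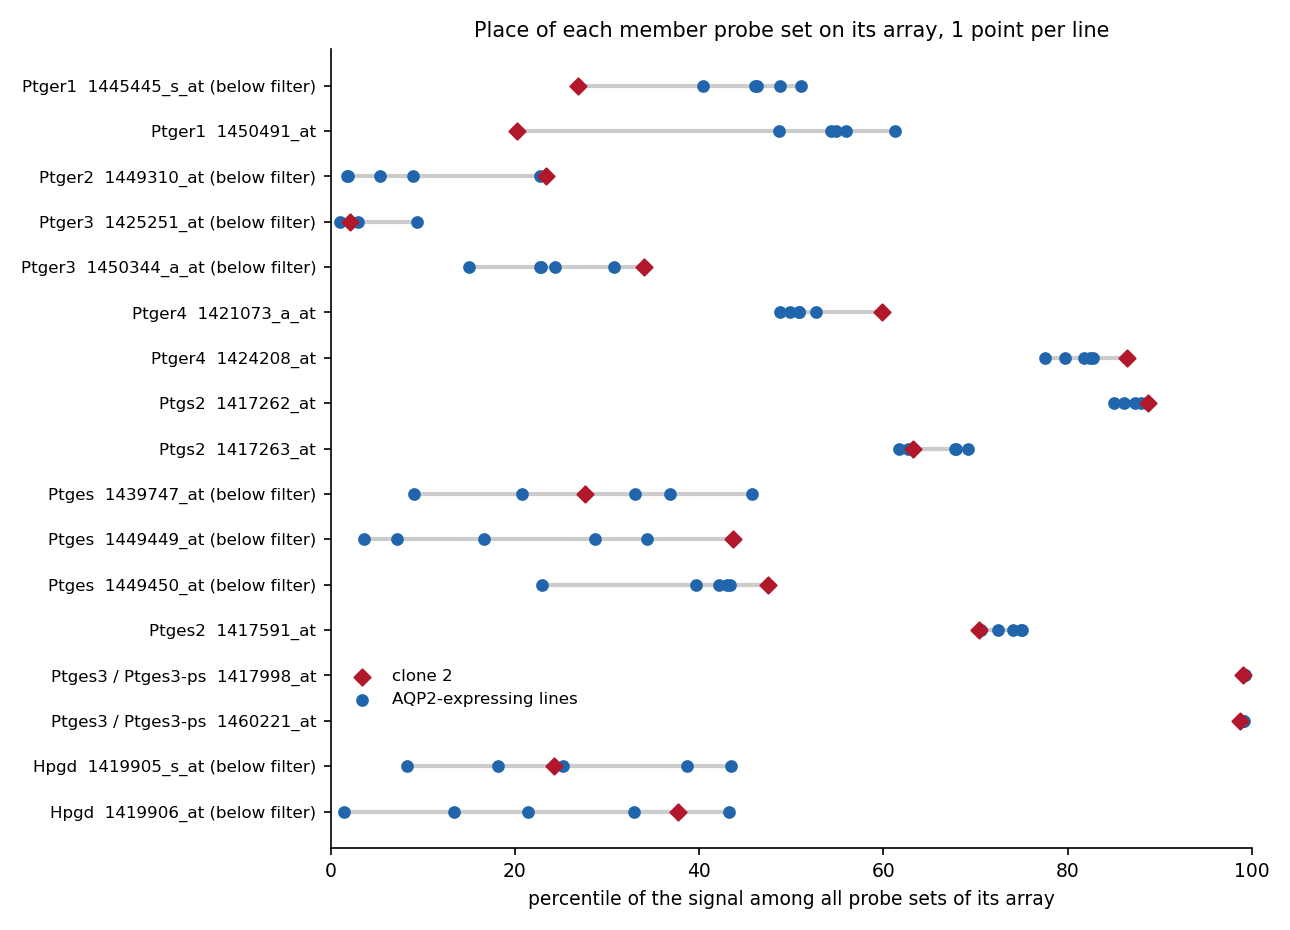
Percentile of the signal among all probe sets of its array (x axis, 0 to 100) for each probe set of the members, with a red diamond for clone 2 and blue circles for the 5 AQP2-expressing lines. The probe sets of Ptger4, Ptgs2 and Ptges2 stand mostly above the middle of the arrays, those of Ptger2, Ptger3, Ptges and Hpgd below it, and clone 2 leaves the other lines by the widest gap for Ptger1.

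In all, 4 of the 8 genes with probe sets of their own passed the filter, and 1 of these 4 was called in clone 2, where 2.49% of 22518 probe sets were called in either direction, 1.67% as lower and 0.817% as higher. Since Ptger1 passed the filter only through the expressing lines, this count does not support its call. At an unadjusted p under 0.05 there were 2 of the 4, Ptger1 and Ptger4, against 20% of all probe sets. Clone 2 fell outside the span of the expressing lines for all 4, below it for Ptger1 and Ptges2 and above it for Ptger4 and Ptgs2. Of all probe sets past the filter 53.6% did so, 29.3% below and 24.3% above. The median difference of the 4 was -0.07, and that of all probe sets -0.03. Over all probe sets 184 were higher and 376 lower in clone 2, and with median centring 254 and 232.

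The series was designed to find transcripts that follow Aqp2 across lines. In a fit of each probe set on the log2 value of Aqp2 over the 6 lines, none of the 4 members passed, where 1.76% of 22517 probe sets did (limma), 1.02% with a positive and 0.742% with a negative slope. At an unadjusted p under 0.05 there were 2, Ptger1 and Ptger4, against 19.9% of all. This fit uses the same arrays as the comparison of clone 2, so their results are not independent. Of all probe sets, 230 rose and 167 fell with Aqp2, and with median centring 158 rose and 185 fell.

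Ptger1 had a slope of 0.47 log2 units per log2 unit of Aqp2 (SE 0.0996, limma adjusted p = 0.053). Its correlation with Aqp2 was r = 0.90 (exact permutation p = 0.0333 over 720 pairings, 0.294 adjusted over all probe sets) and rho = 0.66 (exact permutation p = 0.175, 0.603 adjusted), n = 6 lines. Without clone 2 and clone 11, the lines farthest from the median of Aqp2, r was 0.10 (n = 4, not tested). Without clone 11 alone the slope was 0.45, and without clone 2 alone it was 0.20. On this probe set clone 11 had the highest Ptger1 signal and clone 2 the lowest, as for Aqp2. Clone 10, lowest in Aqp2 among the expressing lines, was second highest in Ptger1. Over the 5 expressing lines alone the slope was 0.20 (limma adjusted p = 0.688). The slope passed with an offset of 0 (0.0461), with a robust fit (0.0393) and without clone 10 (0.0215). In the other 11 of 14 alternatives it did not pass, among them no filter (limma adjusted p = 0.129), no trend in eBayes (0.0883) and without clone 11 (0.134). The second probe set of Ptger1, below the filter, was highest in clone 10 (94.99, with 66.8 in clone 11). Its slope in a fit with no filter was 0.19 (limma adjusted p = 0.538).

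Ptger4 ran the other way, with a slope of -0.13 (SE 0.0466, limma adjusted p = 0.156) that did not pass. Its r was -0.80 (exact permutation p = 0.0694, 0.364 adjusted) and its rho -0.71 (exact permutation p = 0.136, 0.547 adjusted), n = 6. Without clone 2 and clone 11, r was 0.26 (n = 4, not tested), of opposite sign. Without clone 11 alone the slope was -0.10, and without clone 2 alone it was -0.089. On this probe set clone 11 had the lowest Ptger4 signal and clone 2 the highest. The second probe set was also highest in clone 2, but lowest in clone 9 (79.8, with 89.1 in clone 11). It gave r = -0.83 (exact permutation p = 0.0778, 0.378 adjusted) and rho = -0.49 (exact permutation p = 0.356, 0.766 adjusted), n = 6. Its r without clone 2 and clone 11 was 0.003, so the turn of sign was not shared.

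Ptgs2 gave r = -0.62 (exact permutation p = 0.194, 0.503 adjusted), n = 6, with rho = -0.71 (exact permutation p = 0.136, 0.547 adjusted), and its slope of -0.06 did not pass (limma adjusted p = 0.456). Without clone 2 and clone 11, r was -0.38 (n = 4, not tested). The second probe set of Ptgs2 had the opposite sign, with r = 0.41 (exact permutation p = 0.482, 0.740 adjusted), n = 6, and r = 0.82 without those lines (n = 4, not tested). Ptges2 gave r = 0.30 (exact permutation p = 0.588, 0.808 adjusted), n = 6, with rho = 0.09 (exact permutation p = 0.919, 0.992 adjusted), and without those lines r was -0.93 (n = 4, not tested). With only 4 lines left, these values of r describe the points and show no relation. Its slope of 0.03 did not pass (limma adjusted p = 0.76). No probe set of the array passed by the permutation of r after adjustment, with 3362 of 22517 at an unadjusted p under 0.05.

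**Figure D3:**
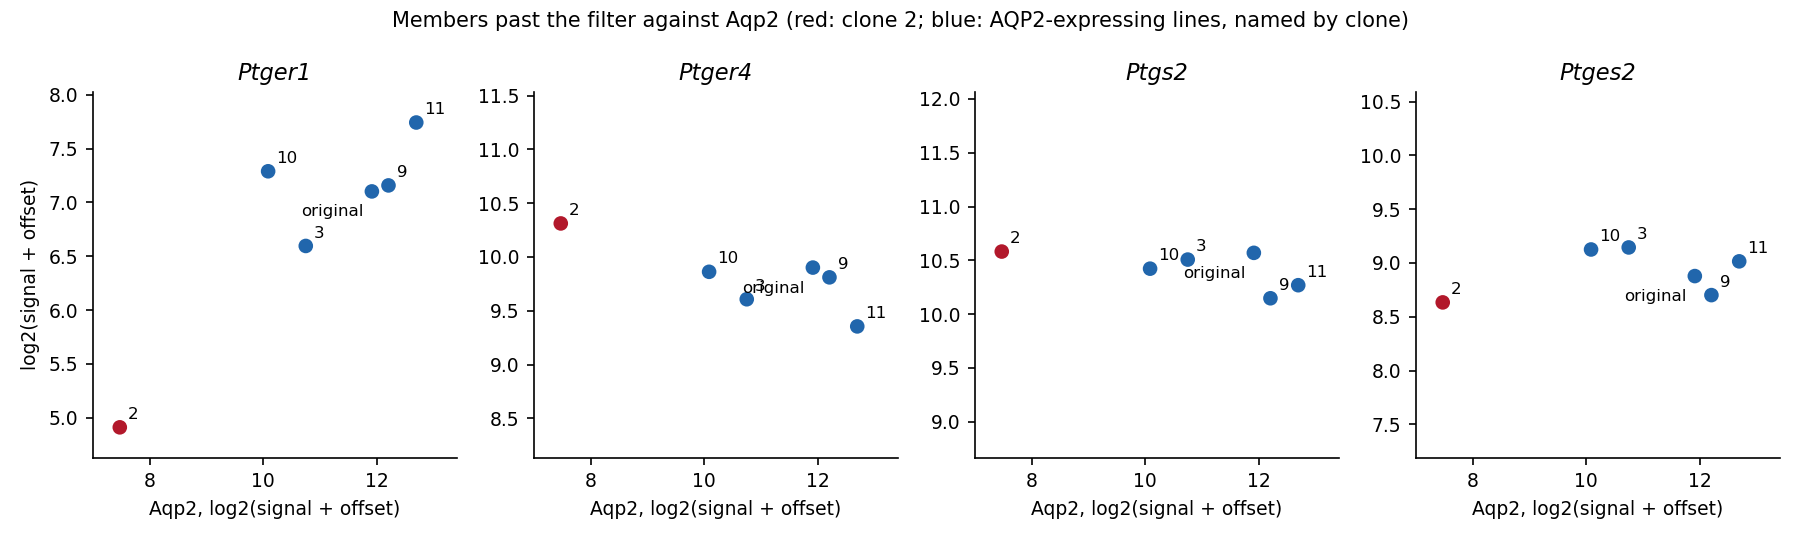
Level of Ptger1, Ptger4, Ptgs2 and Ptges2 (y axis) against Aqp2 (x axis), both as log2(signal + 18.85), 1 point per line, clone 2 in red and the AQP2-expressing lines in blue with their clone number; every y axis spans the same number of log2 units. Clone 2 and clone 11 stand at opposite ends for Ptger1 (r = 0.90) and Ptger4 (r = -0.80), and without them r was 0.10 for Ptger1 and 0.26 for Ptger4 (n = 4, not tested).

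By likeness over the 6 arrays, the genes nearest to Ptger1 among 10341 compared were Mms19 (r = 0.996), which acts in iron-sulfur protein assembly, Map1lc3b (r = 0.994), an autophagy protein, and Anxa1 (r = 0.991), annexin A1. With 133 genes above r = 0.95, values this high were not rare over 6 arrays. Nearest to Ptger4 were Smim6 (r = 0.988), Pwwp3b (r = 0.986) and Eif4ebp1 (r = 0.986), a repressor of translation, with 30 genes above 0.95. These genes were picked for their pattern over the same arrays, so their differences in clone 2 are no separate evidence. Anxa1 is also in the lists described next and was tested there, so its result is not independent of that of Ptger1.

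Other genes of prostanoid biology were described from 6 lists. Of 46 measured genes 24 passed the filter, 1 of these fell in clone 2, none rose and 23 did not pass, where 2.49% of all probe sets were called. At an unadjusted p under 0.05 there were 4 of the 24, no larger a share than the 20% of all probe sets. Their median difference was -0.17. Anxa1, first known as an inhibitor of phospholipase A2, was the gene that fell, with a signal of 11591 in clone 2 and 17153 to 22022 in the expressing lines. Clone 2 lay below every other line, with a difference of -0.70 (SE 0.131, limma adjusted p = 0.0336), and Anxa1 was also the 1 gene of these lists whose slope on Aqp2 passed (0.15, limma adjusted p = 0.0364), where 1.76% of all probe sets did. With no filter neither call of Anxa1 was kept (limma adjusted p = 0.103 and 0.115). The other 4 genes of arachidonate release past the filter did not pass. Among them Pla2g4a, the cytosolic phospholipase A2, named after its value was seen, read 971 in clone 2 and 938 to 1862 in the expressing lines (limma adjusted p = 0.425).

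None of 3 other synthases passed. Cbr1, a carbonyl reductase that can convert prostaglandin E2, had 955 in clone 2 and 979 ± 250.1 in the expressing lines, and Ptgds, a prostaglandin D synthase, 193 in clone 2 and 272 ± 53.2. The 1 other prostanoid receptor past the filter was Tbxa2r, for thromboxane, with 92.1 in clone 2 and 120 ± 26.7 (limma adjusted p = 0.662). Of 7 transport and breakdown genes none passed. Abcc4, a pump that exports prostaglandin E2, read 892 in clone 2 and 1269 to 2737 in the expressing lines, below all of them, with a difference of -1.16 (SE 0.323, limma adjusted p = 0.0937). Slco4a1, an organic anion transporter, had 2624 in clone 2 and 2133 ± 751 in the expressing lines. In the lipoxygenase branch 1 of 8 measured genes passed the filter, Lta4h, the leukotriene A4 hydrolase, at 2845 in clone 2 and 3290 ± 416 (limma adjusted p = 0.562).

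The 7 G protein genes past the filter did not pass either. Gnas, the stimulatory subunit that EP2 and EP4 use, had 14806 in clone 2 and 15211 ± 1259 in the expressing lines (difference -0.04, limma adjusted p = 0.907). Gnai3, an inhibitory subunit of the kind EP3 uses, had 5173 in clone 2 and 6544 ± 192, below all expressing lines, with a difference of -0.34 (SE 0.110, limma adjusted p = 0.138). Gnaq, named after its value was seen, had 1704 in clone 2 and 2394 ± 169, also below all expressing lines. Its difference was -0.48 (SE 0.146, limma adjusted p = 0.116). In clone 2, Gnas, Gnai2, Gna11, Gna12 and Gna13 lay inside the range of the expressing lines. Each of these means is over n = 5 lines with the SD.

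**Figure D4:**
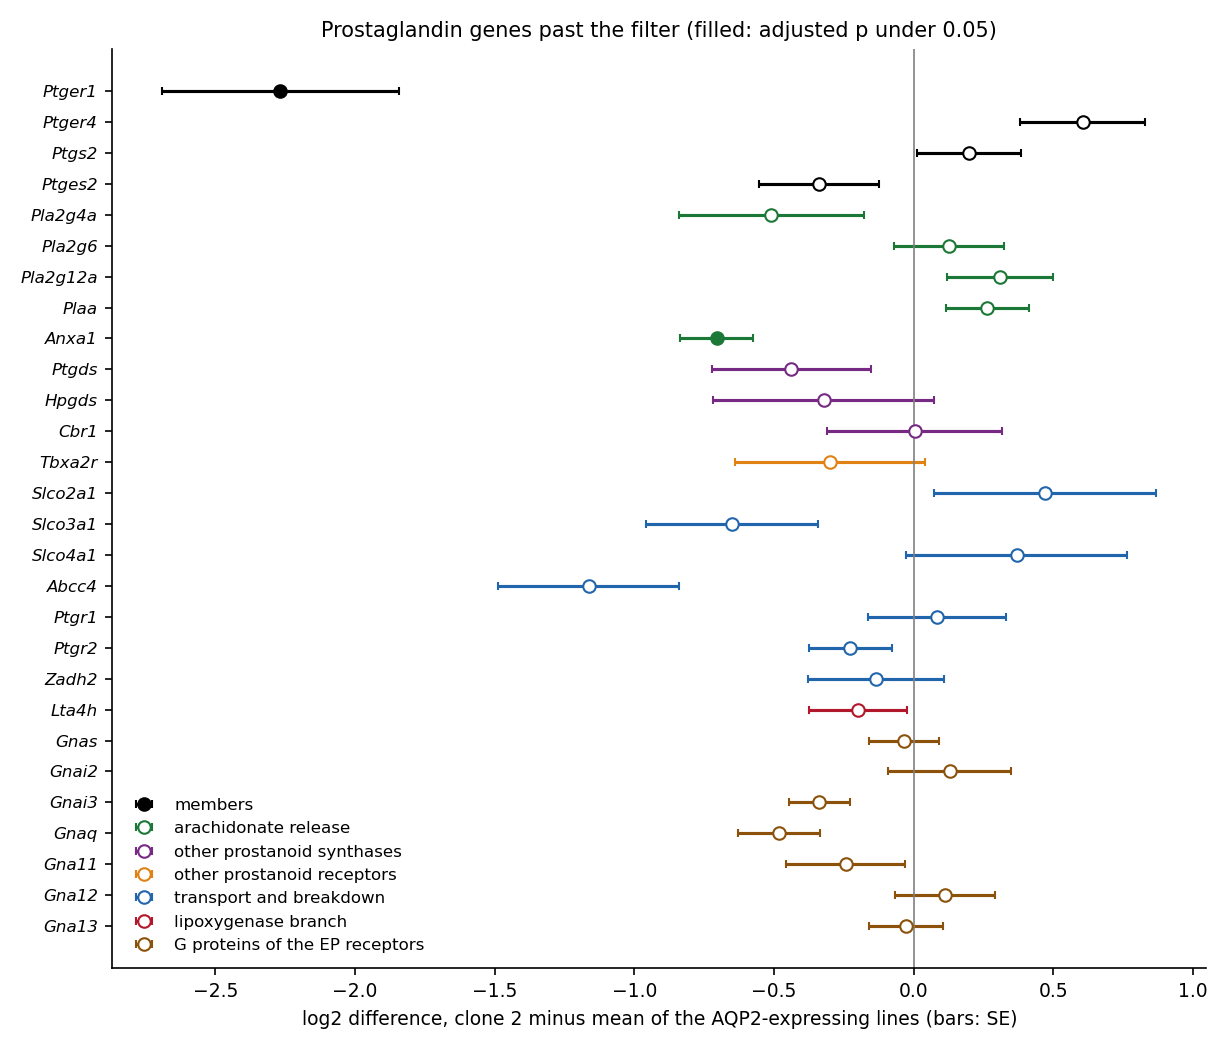
Log2 difference of clone 2 minus the mean of the 5 AQP2-expressing lines (x axis, bars give the SE) for the 4 members and the 24 other prostanoid genes past the filter, coloured by list, with filled points for an adjusted p under 0.05. Ptger1 (-2.27) and Anxa1 (-0.70) are the filled points, both on the side lower in clone 2. Their patterns over the 6 arrays were alike (r = 0.991), so they are not independent.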

How the data were processed

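Gene expression was measured in 6 lines of mpkCCD cells on 1 Affymetrix array each. The authors deposited linear MAS5 intensities. The submitters' processing notes name MAS5 and, as software, Affymetrix Expression Console 1.1. Each array's mean without the lowest and highest 2% of values was 500.002 to 500.003, so they had been scaled to a common level. The scaling target is not given in the sources used here. Symbols came from the platform annotation and were updated by gene identifier to assembly GRCm38.p6. A single gene was named for 34945 of the 45037 probe sets, several genes for 932 and none for 9160, and 64 control probe sets were left out.

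The deposited signals were tested after a log2 transform with 18.85 added, the 25th percentile of the values, which understates differences of low signals. Probe sets with a mean above the median of 85.46 were kept (22518). Clone 2 against the 5 expressing lines, and the slope on Aqp2, were fitted with limma 3.58.1 in R 4.3.3 (eBayes with trend, 4 residual degrees of freedom, two-sided, Benjamini-Hochberg over all probe sets, threshold 0.05). Clone 2 was assumed to vary like the other lines. Correlations were tested over all 720 pairings. The gap between clone 2 and the nearest line made up 0.50 of the range of Aqp2 on the log2 scale, so these correlations lean on clone 2. The fits were also run on simulated arrays, drawn with the same spread for clone 2 as for the other lines. Those arrays could not test the assumption made for clone 2, and their outcome is not given here. The members, lists and tests were chosen with earlier results of these data known. The rule for named genes took all members, genes of the lists past a test or otherwise the 2 brightest past the filter, and the 3 most correlated genes for the 2 members of largest SD among those past the filter. Depth has no counterpart here, and the number of arrays limits the precision. Alternatives were the offset, the filter, the normalization, the eBayes settings, each line left out and other probe sets.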

Additional observations from a re-analysis of the deposited data

Results flagged for a closer look

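For 10 probe sets of the members, the expressing lines were searched for a line far from the other 4, and 2 were found, where chance gives about 1 in 20. The probe set of Ptger2 read 15.3 in the original cells and 1.38 to 4.06 in the other expressing lines, with a gap of 0.762 of the whole range on the log2 scale. The brightest of 3 probe sets of Ptges read 16.1 in clone 9 and 44.3 to 57.2 in the others, with a gap of 0.761 of the range, while the other Ptges probe sets were lowest in clone 11 (2.19 and 4.16). All of these signals lay below the filter, and no order of the lines is drawn from them.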

How the results depend on the processing

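All differences and slopes are on the log2 scale and all calls by limma. The clone 2 comparison called 560 probe sets, 219 without a trend in eBayes, 210 when no filter was set, and 154 to 943 with a line left out (320 without clone 3, 943 without clone 9, 344 without clone 10, 249 without clone 11, 154 without the original cells). Of the members it called 1, Ptger1, but 0 with no filter (2 at an unadjusted p under 0.05) and 0 with the filter at the 75th percentile, which Ptger1 did not reach, and 0 to 1 with a line left out. Its adjusted p lay between 0.0179 and 0.0827 for this probe set. The slope on Aqp2 called 397, 51 with no filter, 1 without the trend, and 0 to 648 with a line left out (191 without clone 3, 258 without clone 9, 648 without clone 10, 0 without clone 11, where 3899 were at an unadjusted p under 0.05, 90 without the original cells, 3 without clone 2). Of the members it called 0, but 1 with an offset of 0, 1 with a robust fit and 0 to 1 with a line left out, in each case Ptger1. The sign turned for the second probe set of Ptgs2 (difference -0.31, slope 0.070) and for the slope of Ptges2 without clone 2 (-0.11, within -0.11 to 0.060 over lines left out). It also turned without clone 2 and clone 11 for r of Ptger4 (0.26) and Ptges2 (-0.93), each over n = 4 lines and not tested. The causes were not tested. Ptger4 stayed above the expressing lines and uncalled in all 14 alternatives, with adjusted p between 0.124 and 0.277. No paired analysis was possible because clone 2 is a single array and the lines carry no shared replicate numbers. Signals below the filter (Ptger2, Ptger3, Ptges, Hpgd) limit what these arrays show of those genes.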
